A study of Homo sapiens with 12 samples.

Results

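The mRNAs of the translation initiation factors were measured in U-2932, a cell line from a human diffuse large B cell lymphoma. Members were the protein-coding genes on chromosomes 1 to 22 or X whose symbol begins with EIF and a digit from 1 to 6, and 1 gene that meets this description is not analysed here. This gave 54 genes of the 60675 in the table, of which 52 passed the filter on low counts and were tested. The name also takes in kinases, inhibitors and retrocopies that are not subunits of an initiation factor. The cells stably expressed either Roquin2 with the Y691F substitution (Y691F) or the wild-type protein (WT), and Roquin2 binds RNA and promotes mRNA decay. Their B cell receptor was stimulated with 10 µg/ml of F(ab')2-IgM over 12 h, or they stayed untreated. This made 4 groups, Y691F with IgM, untreated Y691F, WT with IgM and untreated WT, with 3 libraries each that the labels call biological replicates. The sources used here do not give whether a stable line was 1 clone or a pool.

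Initiation begins when eIF2, loaded with GTP and the initiator tRNA, joins the small ribosomal subunit together with eIF1, eIF1A, eIF3 and eIF5. The cap-binding complex eIF4F, made of the cap-binding protein eIF4E, the scaffold eIF4G and the helicase eIF4A, brings this assembly to the 5' end of an mRNA. The ribosome then scans to a start codon, and eIF5B joins the large subunit. Control acts at a pair of steps: 4E-BPs hold eIF4E away from eIF4G until mTORC1 phosphorylates them, and eIF2 kinases phosphorylate eIF2 so that it blocks its own exchange factor eIF2B. A B cell that is stimulated through its receptor enlarges and raises its protein synthesis. All values here are of mRNA, and neither protein nor its phosphorylation was measured.

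The library totals ran from 16465393 to 21478790 counts. Levels are CPM, that is counts relative to a library total adjusted with its TMM factor, which corrects for composition, and the 3 libraries of a group are listed from low to high. Changes are log2 ratios with an approximate standard error (SE), and adjusted p is from the quasi-likelihood test of edgeR over all 15112 tested genes. Called means that the adjusted p was under 0.05. RC3H2, the gene of Roquin2, was higher in Y691F than in WT both with IgM (log2 0.77, SE 0.033, adjusted p = 7.31e-36) and without (log2 0.92, SE 0.032, adjusted p = 2.50e-41), so the substitution and the RC3H2 mRNA level differed together between the lines. The 6 B cell markers summed to 2135 to 2182 CPM in Y691F with IgM, 2827 to 2853 CPM in untreated Y691F, 2201 to 2245 CPM in WT with IgM and 3232 to 3277 CPM in untreated WT. CD2 and CD3D of the 7 T and NK cell markers had no read, and that list summed to 4.89 CPM or less in every library. The 5 myeloid markers summed to 1.58 CPM or less. Of the 6 epithelial and fibroblast markers, EPCAM averaged 21.3 CPM and the other 5 were under 1 CPM. The part of these levels in the results was not tested.

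Stimulation through the receptor was followed by higher levels of most initiation factor mRNAs in both lines. In Y691F, 39 of the 52 tested members were higher with IgM, a call that 37.1% of all tested genes received, and 5 were lower, against 38.7% of all tested genes. In WT, 40 of the 52 were higher, against 38.4% of all tested genes, and 8 were lower, against 38.5%. The median change of the members was 0.47 in Y691F and 0.41 in WT on the log2 scale, and that of all tested genes was -0.011 and 0.0016. In bulk RNA, fewer cells that express a gene and less RNA in each cell cannot be told apart. Rises of at least 0.5 were called for 26 members in Y691F and 22 in WT, against 20.4% and 21.9% of all tested genes. Falls of at least 0.5 were called for EIF4EBP1 and EIF4EBP2 in each line, against 26.4% of all tested genes in Y691F and 26.7% in WT. With library totals in place of TMM factors the median of all genes was -0.18 in Y691F and -0.13 in WT, so the IgM changes are relative to the scaling. The members' median was then 0.30 in Y691F and 0.28 in WT, and they counted 33 higher and 12 lower in Y691F and 34 higher and 12 lower in WT. For all 44 called members in Y691F the 3 libraries with IgM lay apart from the 3 untreated ones, and in WT for 47 of 48, EIF2S3L being the exception. This follows largely from the call, which rests on the same libraries, and the share over all tested genes is not given.

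**Figure D1:**
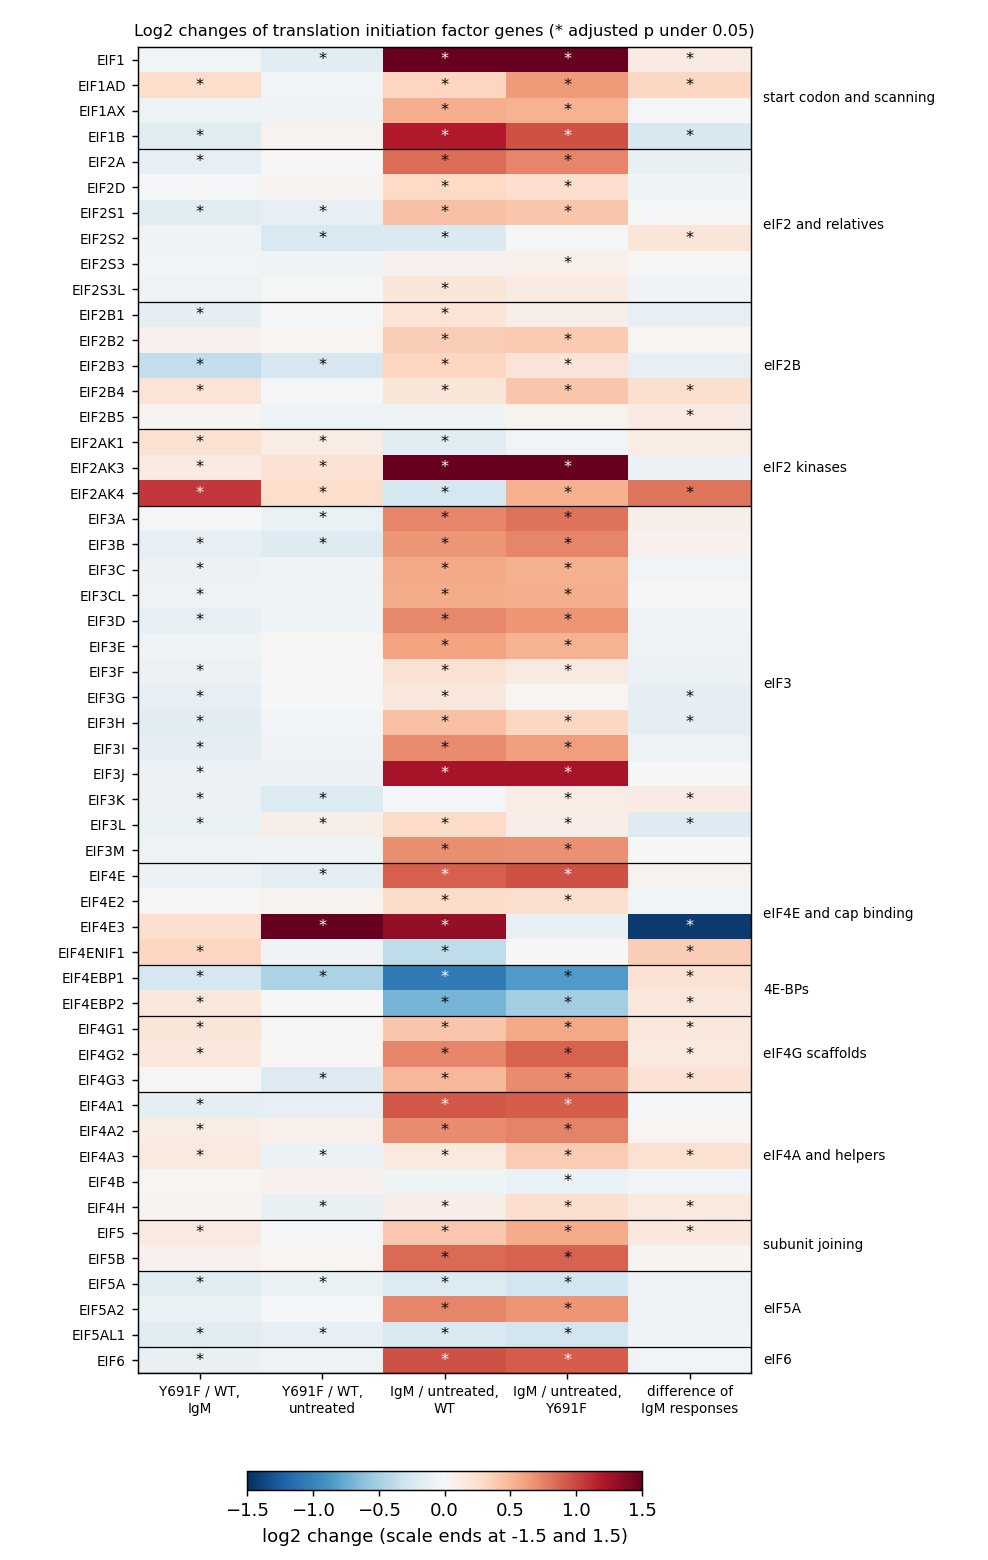
Log2 changes of the 52 tested members (rows, grouped by role) in the 4 comparisons between groups and in the difference of the IgM responses (columns), with red for higher and blue for lower and a star at an adjusted p under 0.05. Both IgM columns are mostly red, with blue for EIF4EBP1 and EIF4EBP2, and the columns of Y691F against WT are paler, with EIF2AK4, EIF4E3 and EIF4EBP1 standing out.

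All 4 tested members whose symbol begins with EIF1 rose with IgM in each line. The share of all tested genes that rose was 37.1% in Y691F and 38.4% in WT. EIF1 encodes eIF1, which guards the accuracy of start codon selection (ENSG00000173812, chromosome 17, 41688885 to 41692668, plus strand, GRCh38). It had 774, 777 and 778 CPM in Y691F with IgM, 244, 249 and 266 CPM in untreated Y691F, 785, 808 and 811 CPM in WT with IgM and 281, 285 and 287 CPM in untreated WT. Every library with IgM was far above every untreated one, a 3.07-fold rise in Y691F (log2 1.62, SE 0.029, adjusted p = 3.65e-64) and a 2.82-fold rise in WT (log2 1.49, SE 0.029, adjusted p = 8.06e-62). EIF1B, a close paralog of EIF1, had 47.9, 48.0 and 49.1 CPM in Y691F with IgM, 23.4, 24.0 and 27.6 CPM in untreated Y691F, 53.1, 54.1 and 58.2 CPM in WT with IgM and 23.2, 24.4 and 24.6 CPM in untreated WT. Its libraries with and without IgM did not overlap either (log2 0.96 in Y691F, 1.19 in WT). EIF1AX encodes eIF1A, which promotes scanning, and had 114, 119.8 and 121 CPM in Y691F with IgM, 79.3, 82.2 and 85.6 CPM in untreated Y691F, 123, 125 and 126 CPM in WT with IgM and 84.2, 85.1 and 88.0 CPM in untreated WT. It rose by a like amount in each line (0.53 in Y691F and 0.54 in WT). EIF1AD, which encodes a protein with an eIF1A-like domain, had 61.0, 62.1 and 62.5 CPM in Y691F with IgM, 39.0, 39.9 and 40.4 CPM in untreated Y691F, 48.7, 52.3 and 53.2 CPM in WT with IgM and 40.3, 41.3 and 41.5 CPM in untreated WT. Its rise was 0.64 in Y691F and 0.33 in WT, and the Y691F libraries with IgM were the 3 highest of all 12.

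The mRNAs of the eIF2 subunits moved less. EIF2S1 encodes the alpha subunit, the target of the eIF2 kinases, and had 116, 123 and 126 CPM in Y691F with IgM, 89.1, 91.8 and 93.3 CPM in untreated Y691F, 136, 136 and 136 CPM in WT with IgM and 97.5, 101 and 101 CPM in untreated WT. It rose with IgM in Y691F (0.41, adjusted p = 1.04e-17) and in WT (0.44, adjusted p = 8.36e-20). EIF2S2, the gene of the beta subunit, averaged 115 ± 5.18 CPM in Y691F with IgM, 118 ± 2.62 CPM in untreated Y691F, 119 ± 1.99 CPM in WT with IgM and 138 ± 4.71 CPM in untreated WT (SD, n = 3 each). With IgM it was lower in WT (-0.21, adjusted p = 1.52e-07), while in Y691F the change of -0.030 was not called (95% interval -0.10 to 0.041). In Y691F library totals only called EIF2S2 lower (-0.20, adjusted p = 1.31e-06), as did the filter of 5 CPM in 3 libraries (-0.084, adjusted p = 0.0278). For EIF2S3, the gene of the gamma subunit, the changes with IgM were 0.074 in Y691F and 0.059 in WT, and their sign turned with library totals only (-0.10 in Y691F and -0.075 in WT). EIF2S3L, a copy of EIF2S3 on chromosome 12, can share its reads and averaged 13.7 ± 0.150 CPM in Y691F with IgM, 12.5 ± 0.380 CPM in untreated Y691F, 14.4 ± 0.711 CPM in WT with IgM and 12.6 ± 1.31 CPM in untreated WT. Its call as higher in WT (0.18, adjusted p = 0.0375) was lost in 7 of 20 alternatives, namely library totals only (0.597), no filter, the filter of 5 CPM, the DESeq2 Wald test, and without untreated WT replicate 1 (0.281) or IgM-treated WT replicate 2 (0.119) or 3 (0.121). Outside the eIF2 trimer, EIF2A encodes a separate tRNA-binding factor and had 275, 286 and 293 CPM in Y691F with IgM, 166, 174 and 175 CPM in untreated Y691F, 307, 309 and 312 CPM in WT with IgM and 168, 170.3 and 180.0 CPM in untreated WT. It rose in both lines (0.73 in Y691F, 0.84 in WT). EIF2D, whose product can also deliver tRNA to the ribosome, rose by 0.25 in Y691F and 0.30 in WT.

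The 5 subunit genes of eIF2B, the exchange factor that recharges eIF2, gave 3 higher and 0 lower with IgM in Y691F and 4 higher and 0 lower in WT, with medians of 0.20 in each line. Among all tested genes the shares were 37.1% higher and 38.7% lower in Y691F and 38.4% and 38.5% in WT. EIF2B4 showed the largest rise in Y691F, to 53.4 ± 1.34 CPM with IgM against 39.8 ± 1.75 CPM untreated (0.42). EIF2B2 showed the largest in WT, to 46.5 ± 1.78 CPM with IgM against 36.0 ± 0.300 CPM untreated (0.37). EIF2B5, the gene of the catalytic subunit, had log2 values of 0.058 in Y691F and -0.062 in WT, not called in either. Leaving out untreated Y691F replicate 2 gave a call in Y691F (adjusted p = 0.0335), and leaving out IgM-treated WT replicate 1 gave one in WT (0.0411). EIF2B5 was also called lower in WT with library totals only (1.39e-07), the filter of 5 CPM in 3 libraries (0.00254) and only the groups compared (0.0210). In Y691F library totals only called it lower (-0.11, adjusted p = 0.00145). With library totals only, EIF2B3 was not called in Y691F (adjusted p = 0.682), nor EIF2B1 (0.155) or EIF2B4 (0.339) in WT. In the table the coordinates of EIF2B5 overlap those of EIF4G1 and 7 other protein-coding genes on the same strand that averaged 1 CPM or more, so its count may hold or lose reads of theirs.

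The eIF2 kinase genes parted from each other. EIF2AK3 encodes PERK, the kinase that senses unfolded proteins in the endoplasmic reticulum (ENSG00000172071, chromosome 2, 88556741 to 88627576, minus strand). It had 92.8, 93.9 and 97.1 CPM in Y691F with IgM, 27.0, 27.3 and 27.8 CPM in untreated Y691F, 83.7, 86.9 and 89.9 CPM in WT with IgM and 22.5, 23.8 and 24.7 CPM in untreated WT. Treated and untreated libraries were far apart, with a rise of 3.46-fold in Y691F (log2 1.79, SE 0.046, adjusted p = 2.01e-52) and 3.67-fold in WT (log2 1.88, SE 0.048, adjusted p = 1.87e-52). In each line this was the largest rise of any member. EIF2AK4 encodes GCN2, which senses uncharged tRNA when amino acids run short (ENSG00000128829, chromosome 15, 39934146 to 40035591, plus strand). It had 64.0, 64.5 and 66.7 CPM in Y691F with IgM, 44.0, 44.8 and 45.8 CPM in untreated Y691F, 29.9, 31.1 and 32.3 CPM in WT with IgM and 36.4, 37.4 and 38.2 CPM in untreated WT. The 4 groups did not overlap, and their order was Y691F with IgM, untreated Y691F, untreated WT and WT with IgM from high to low. IgM was thus followed by a rise in Y691F (log2 0.54, SE 0.045, adjusted p = 7.44e-19) and by a fall in WT (log2 -0.26, SE 0.053, adjusted p = 6.96e-06). The difference of these responses was 0.80 (SE 0.069, adjusted p = 9.99e-17). EIF2AK1 encodes HRI, the kinase that responds to heme shortage, and averaged 175 ± 6.70 CPM in Y691F with IgM, 180.1 ± 1.04 CPM in untreated Y691F, 149 ± 3.61 CPM in WT with IgM and 167 ± 4.72 CPM in untreated WT. It was lower with IgM in WT (-0.16, adjusted p = 2.25e-05) and had no call in Y691F (-0.040, 95% interval -0.10 to 0.025). There library totals only (adjusted p = 1.92e-08) and the filter of 5 CPM in 3 libraries (-0.094, adjusted p = 0.00611) called it lower. The difference of the EIF2AK1 responses was not called, though 4 of 19 alternatives called it.

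**Figure D2:**
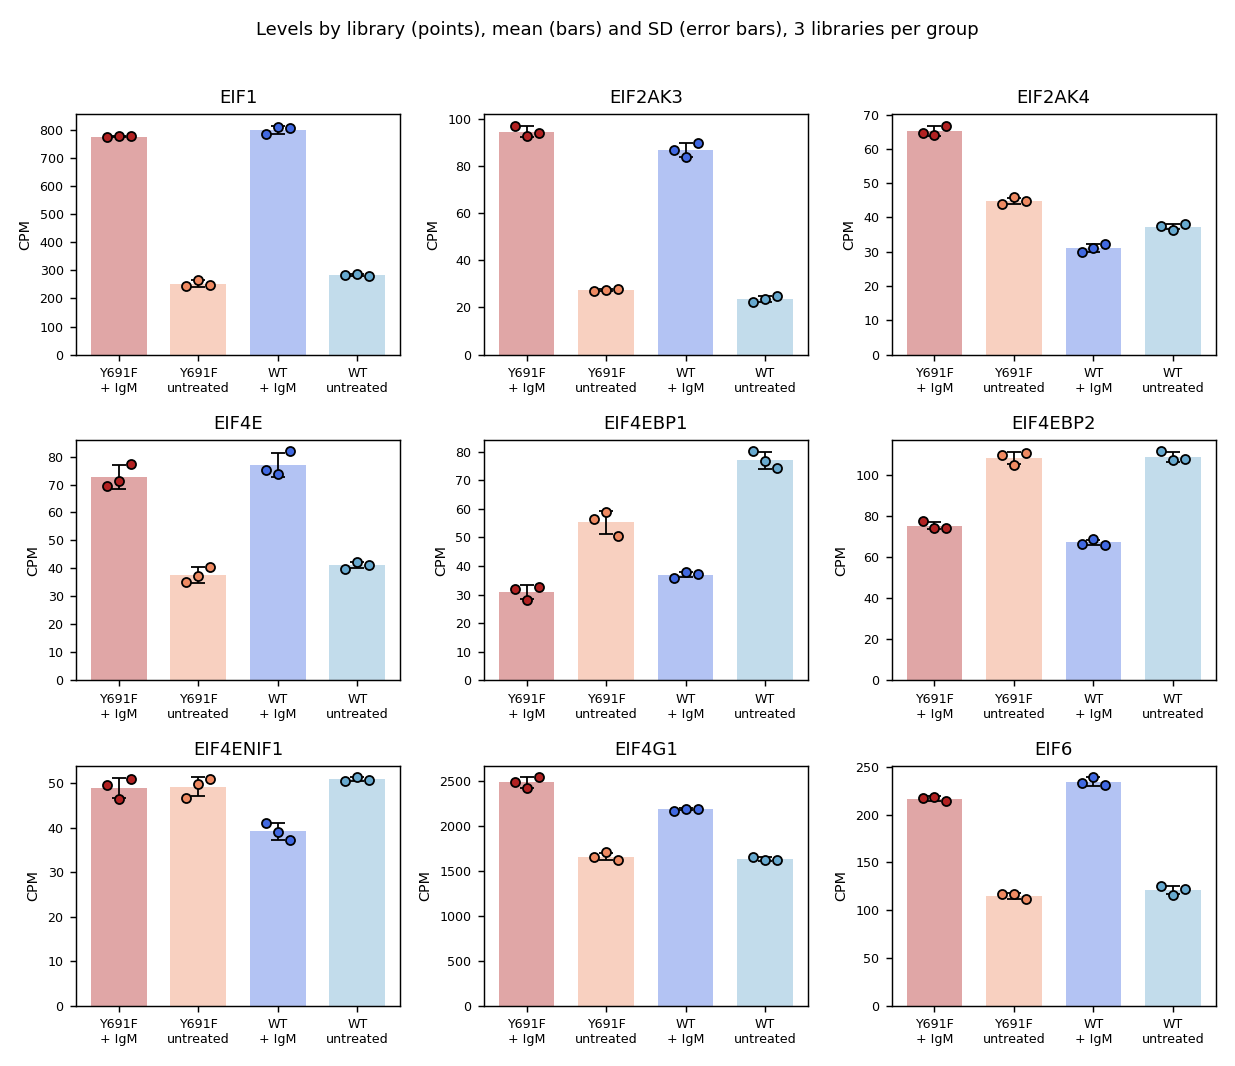
Levels in CPM of 9 members in the 4 groups, Y691F with IgM, untreated Y691F, WT with IgM and untreated WT from left to right, with a point per library, a bar at the mean and an error bar of 1 SD (n = 3). EIF1, EIF2AK3, EIF4E, EIF4G1 and EIF6 stand higher with IgM in both lines, EIF4EBP1 and EIF4EBP2 lower, and EIF2AK4 is highest in Y691F with IgM and lowest in WT with IgM.

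The eIF3 genes, whose products form the large complex that binds the small subunit and connects it to eIF4G, rose in 13 of 14 cases in Y691F and in 13 of 14 in WT, and none was called lower with IgM. Of all tested genes, 37.1% were higher and 38.7% lower in Y691F, and 38.4% and 38.5% in WT. The summed level of the 14 genes was 4803 to 4964 CPM in Y691F with IgM, 3296 to 3396 CPM in untreated Y691F, 5161 to 5243 CPM in WT with IgM and 3496 to 3533 CPM in untreated WT. EIF3C and EIF3CL share reads, yet each enters these counts and this sum. The subunits spread widely within this rise. EIF3J, the gene of a subunit that is only loosely bound, had 156, 163 and 166 CPM in Y691F with IgM, 64.7, 68.2 and 72.5 CPM in untreated Y691F, 168, 172 and 176 CPM in WT with IgM and 71.1, 73.8 and 73.8 CPM in untreated WT. It was 2.36-fold higher with IgM in each line (log2 1.24 in Y691F, 1.24 in WT) and led the group in both. EIF3A, the gene of the largest scaffold subunit, had 418, 433 and 457 CPM in Y691F with IgM, 241, 251 and 253 CPM in untreated Y691F, 436, 444 and 444 CPM in WT with IgM and 259.7, 264 and 275 CPM in untreated WT. Its rise was 0.81 in Y691F and 0.73 in WT.

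EIF3B, which encodes the other core scaffold, had 780.2, 785 and 795 CPM in Y691F with IgM, 466, 467 and 484 CPM in untreated Y691F, 849, 850.2 and 876 CPM in WT with IgM and 537, 538 and 548 CPM in untreated WT. The libraries with IgM were again apart from the untreated ones (0.74 in Y691F, 0.67 in WT). EIF3C and its near-identical copy EIF3CL share reads and cannot be told apart. EIF3C had 665, 667 and 704 CPM in Y691F with IgM, 464, 465 and 481 CPM in untreated Y691F, 713, 715 and 738 CPM in WT with IgM and 476, 488 and 494 CPM in untreated WT. EIF3CL had 689.8, 705 and 714 CPM in Y691F with IgM, 473, 484 and 485 CPM in untreated Y691F, 730.2, 745 and 749 CPM in WT with IgM and 498, 498 and 513 CPM in untreated WT. Both rose by like amounts, 0.53 and 0.55 in Y691F and 0.57 and 0.56 in WT.

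Among the subunits with a middle rise, EIF3D, whose product can itself bind the cap of some mRNAs, had 343, 348 and 361 CPM in Y691F with IgM, 219, 221 and 226 CPM in untreated Y691F, 377, 386 and 387 CPM in WT with IgM and 229.8, 230.1 and 238 CPM in untreated WT. The gene of the beta-propeller subunit, EIF3I, had 277, 287 and 288 CPM in Y691F with IgM, 181, 182 and 186 CPM in untreated Y691F, 307, 310.2 and 317 CPM in WT with IgM and 188, 192 and 192 CPM in untreated WT. In both genes the libraries with IgM lay above the untreated ones in each line. EIF3M had 243, 247 and 257 CPM in Y691F with IgM, 153, 153 and 156 CPM in untreated Y691F, 256, 264 and 266 CPM in WT with IgM and 156, 157 and 171 CPM in untreated WT. EIF3E had 281, 292 and 299.9 CPM in Y691F with IgM, 192, 197 and 217 CPM in untreated Y691F, 296, 307 and 313 CPM in WT with IgM and 199, 199 and 202 CPM in untreated WT. These 4 genes rose by 0.53 to 0.69 in Y691F and by 0.61 to 0.72 in WT. The smallest responses were those of EIF3H, EIF3F, EIF3L, EIF3G and EIF3K, at 0.034 to 0.31 in Y691F and -0.014 to 0.44 in WT. The exceptions to the calls were EIF3G in Y691F (0.034, 95% interval -0.031 to 0.10) and EIF3K in WT (-0.014, 95% interval -0.076 to 0.049). With library totals only, the sign turned in Y691F for EIF3F (-0.029), EIF3K (-0.060), EIF3G (-0.14, called lower at adjusted p = 1.28e-04) and EIF3L (-0.075, called lower at adjusted p = 0.0329). In WT that scaling called EIF3K lower (-0.15, adjusted p = 1.27e-05) and ended the call for EIF3G (adjusted p = 0.349). A filter of 5 CPM in 3 libraries ended the calls for EIF3K (0.0866) and EIF3L (0.223) in Y691F.

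**Figure D3:**
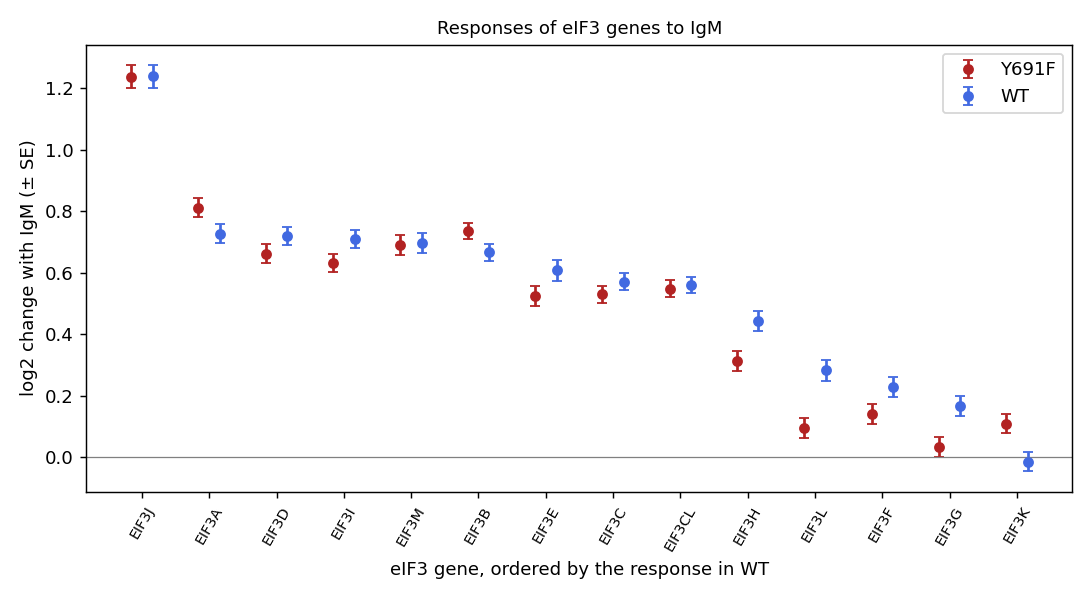
Log2 change with IgM (± SE) of the 14 eIF3 genes in Y691F (red, left of each pair) and WT (blue, right), ordered by the response in WT. EIF3J stands above the rest in both lines and EIF3H, EIF3L, EIF3F, EIF3G and EIF3K stand lowest.

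The genes around the cap moved in opposite directions. EIF4E, which encodes the cap-binding protein and limits eIF4F in many cells (ENSG00000151247, chromosome 4, 98871684 to 98930637, minus strand), had 69.5, 71.1 and 77.4 CPM in Y691F with IgM, 35.0, 37.2 and 40.5 CPM in untreated Y691F, 73.9, 75.1 and 81.9 CPM in WT with IgM and 39.9, 41.2 and 42.1 CPM in untreated WT. All 6 libraries with IgM were above all 6 untreated ones, with a rise of 1.93-fold in Y691F (log2 0.95, SE 0.049, adjusted p = 3.60e-30) and 1.87-fold in WT (log2 0.90, SE 0.048, adjusted p = 3.79e-29). EIF4EBP1 and EIF4EBP2 encode 4E-BP1 and 4E-BP2, which sequester eIF4E, and both fell. EIF4EBP1 (ENSG00000187840, chromosome 8, 38030341 to 38060365, plus strand) had 28.0, 31.8 and 32.6 CPM in Y691F with IgM, 50.7, 56.4 and 58.8 CPM in untreated Y691F, 35.9, 37.3 and 37.7 CPM in WT with IgM and 74.3, 76.7 and 80.2 CPM in untreated WT. It fell to 30.8 ± 2.47 CPM in Y691F with IgM, against 55.3 ± 4.17 CPM in untreated Y691F (log2 -0.85, SE 0.053, adjusted p = 6.18e-25), and to 37.0 ± 0.984 CPM in WT with IgM, against 77.1 ± 2.96 CPM in untreated WT (log2 -1.06, SE 0.050, adjusted p = 1.24e-32). In each line this was the largest fall of any member. EIF4EBP2 (ENSG00000148730, chromosome 10, 70404379 to 70428618, plus strand) had 74.5, 74.6 and 77.5 CPM in Y691F with IgM, 105, 109.8 and 111 CPM in untreated Y691F, 66.1, 66.7 and 68.9 CPM in WT with IgM and 107, 108 and 112 CPM in untreated WT. It was lower with IgM by 1.44-fold in Y691F (log2 -0.52, SE 0.038, adjusted p = 2.75e-22) and by 1.62-fold in WT (log2 -0.70, SE 0.039, adjusted p = 4.74e-29). EIF4EBP3 had 94 reads over all 12 libraries and was not tested, and its locus is shared with the read-through gene ANKHD1-EIF4EBP3 on the same strand.

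The other genes of this class moved less or had few reads. EIF4E2 encodes 4EHP, a cap-binding protein that represses translation, and rose by 0.24 in Y691F and 0.28 in WT. With library totals only its value in Y691F was 0.072, not called (adjusted p = 0.25). EIF4E3 had 1.27, 2.41 and 2.61 CPM in Y691F with IgM, 1.96, 2.48 and 2.49 CPM in untreated Y691F, 1.40, 1.89 and 2.04 CPM in WT with IgM and 0.574, 0.689 and 0.846 CPM in untreated WT. Its 386 reads in total make this the shallowest of the tested members, and untreated WT stood below the other 3 groups. EIF4E1B had 1 read in all and was not tested. EIF4ENIF1 encodes 4E-T, which carries eIF4E into the nucleus and into mRNA-silencing complexes. It averaged 49.0 ± 2.25 CPM in Y691F with IgM and 49.2 ± 2.19 CPM in untreated Y691F, with no call (-0.0067, 95% interval -0.10 to 0.088), where library totals only made it lower (adjusted p = 6.45e-04). In WT it fell to 39.2 ± 1.85 CPM with IgM, against 50.9 ± 0.477 CPM untreated (log2 -0.38, SE 0.050, adjusted p = 1.11e-10).

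All 3 eIF4G genes rose in both lines, against 37.1% of all tested genes in Y691F and 38.4% in WT. EIF4G1 encodes the main scaffold of eIF4F and was the member with the most reads (ENSG00000114867, chromosome 3, 184314495 to 184335358, plus strand). It had 2426, 2485 and 2546 CPM in Y691F with IgM, 1623, 1650.0 and 1709 CPM in untreated Y691F, 2173, 2191 and 2193 CPM in WT with IgM and 1618, 1626 and 1659 CPM in untreated WT. All libraries with IgM were above all untreated ones (log2 0.58 in Y691F, 0.42 in WT). EIF4G2 encodes DAP5, a relative that lacks the eIF4E-binding part, and had 1436, 1507 and 1540.0 CPM in Y691F with IgM, 797, 819 and 821 CPM in untreated Y691F, 1336, 1337 and 1354 CPM in WT with IgM and 793, 806 and 815 CPM in untreated WT. Its rise was larger (0.88 in Y691F, 0.74 in WT). EIF4G3 encodes the other full-length scaffold and had 158, 159.6 and 163 CPM in Y691F with IgM, 95.7, 96.2 and 101 CPM in untreated Y691F, 153, 159.5 and 161 CPM in WT with IgM and 107, 114 and 115 CPM in untreated WT. Its rise was 0.71 in Y691F and 0.50 in WT. Per length, EIF4G1 made up 61.2% to 61.7% of the RPKM of the 3 genes in Y691F with IgM, 65.1% to 66.4% in untreated Y691F, 60.3% to 60.9% in WT with IgM and 65.0% to 65.8% in untreated WT. The share was lower with IgM in each line, without overlap of the libraries.

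EIF4A1 and EIF4A2 encode the helicases of eIF4F. EIF4A2 had 561, 561 and 587 CPM in Y691F with IgM, 314, 342 and 363 CPM in untreated Y691F, 523, 524 and 536 CPM in WT with IgM and 314, 316 and 334 CPM in untreated WT. It rose by 0.75 in Y691F and 0.71 in WT. EIF4A1 had 47.7, 50.1 and 51.4 CPM in Y691F with IgM, 25.9, 26.1 and 27.9 CPM in untreated Y691F, 54.8, 55.2 and 55.9 CPM in WT with IgM and 28.6, 28.6 and 29.6 CPM in untreated WT. The groups did not overlap by treatment (0.90 in Y691F and 0.93 in WT), but the level of EIF4A1 is uncertain, since it lies within the read-through gene SENP3-EIF4A1 on the same strand and has many processed copies. EIF4A3, whose product belongs to the exon junction complex, rose in Y691F to 208 ± 4.18 CPM with IgM, against 159.5 ± 7.55 CPM untreated (0.38), and in WT to 188 ± 2.52 CPM, against 169.8 ± 1.76 CPM (0.15, a call absent with library totals only, adjusted p = 0.692). Of the helicase cofactors, EIF4H changed by 0.25 in Y691F and 0.10 in WT, where library totals only gave -0.037. EIF4B was lower with IgM in Y691F (-0.10, adjusted p = 8.38e-04), and its value of -0.060 in WT was not called. It was called lower in WT in 11 of 20 alternatives, among them library totals only (adjusted p = 4.76e-09), the filter of 5 CPM in 3 libraries (7.68e-04), only the groups compared (0.00745), DESeq2 size factors (0.0378), the DESeq2 Wald test (0.0401) and limma-voom (0.0406). The others left out untreated WT replicate 1, IgM-treated WT replicate 2 or any IgM-treated Y691F replicate (0.00873 to 0.0441).

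EIF5B and EIF5 rose with IgM in both lines. EIF5B, the gene of the GTPase that joins the subunits, had 154, 160.4 and 167 CPM in Y691F with IgM, 83.9, 87.3 and 88.5 CPM in untreated Y691F, 150.3, 153 and 157 CPM in WT with IgM and 80.1, 86.6 and 87.4 CPM in untreated WT. EIF5, which encodes the GTPase activator of eIF2, had 312, 316 and 324 CPM in Y691F with IgM, 208, 214 and 225 CPM in untreated Y691F, 286, 289.8 and 291 CPM in WT with IgM and 214, 219 and 221 CPM in untreated WT. In each, the libraries with IgM were all above the untreated ones, with changes of 0.89 and 0.85 for EIF5B and 0.56 and 0.40 for EIF5 in Y691F and WT. EIF6 encodes a factor that keeps the large subunit from joining too early and acts in its assembly (ENSG00000242372, chromosome 20, 35278907 to 35284985, minus strand). It had 214, 217 and 219 CPM in Y691F with IgM, 112, 117 and 117 CPM in untreated Y691F, 231, 233 and 239 CPM in WT with IgM and 116, 122 and 125 CPM in untreated WT. Its level was 1.88-fold higher with IgM in Y691F (log2 0.91, SE 0.033, adjusted p = 9.77e-42) and 1.94-fold higher in WT (log2 0.95, SE 0.033, adjusted p = 2.39e-43).

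EIF5A encodes a hypusine-bearing factor that is now known mainly for elongation and termination, and it went the other way. It had 848, 851 and 859.5 CPM in Y691F with IgM, 1001, 1031 and 1086 CPM in untreated Y691F, 947, 973 and 978 CPM in WT with IgM and 1098, 1119.9 and 1133 CPM in untreated WT. The level was lower with IgM in Y691F (log2 -0.28, SE 0.027, adjusted p = 6.32e-16) and in WT (log2 -0.21, SE 0.027, adjusted p = 8.46e-11), without overlap between treated and untreated libraries. EIF5AL1, a copy of EIF5A on chromosome 10 that can share its reads, changed by -0.28 in Y691F and -0.23 in WT. EIF5A2, a separate paralog with a far lower level, had 13.0, 13.7 and 14.3 CPM in Y691F with IgM, 8.08, 8.10 and 9.67 CPM in untreated Y691F, 14.1, 14.6 and 14.9 CPM in WT with IgM and 7.79, 8.61 and 9.66 CPM in untreated WT. Its mRNA rose (0.66 in Y691F, 0.74 in WT).

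**Figure D4:**
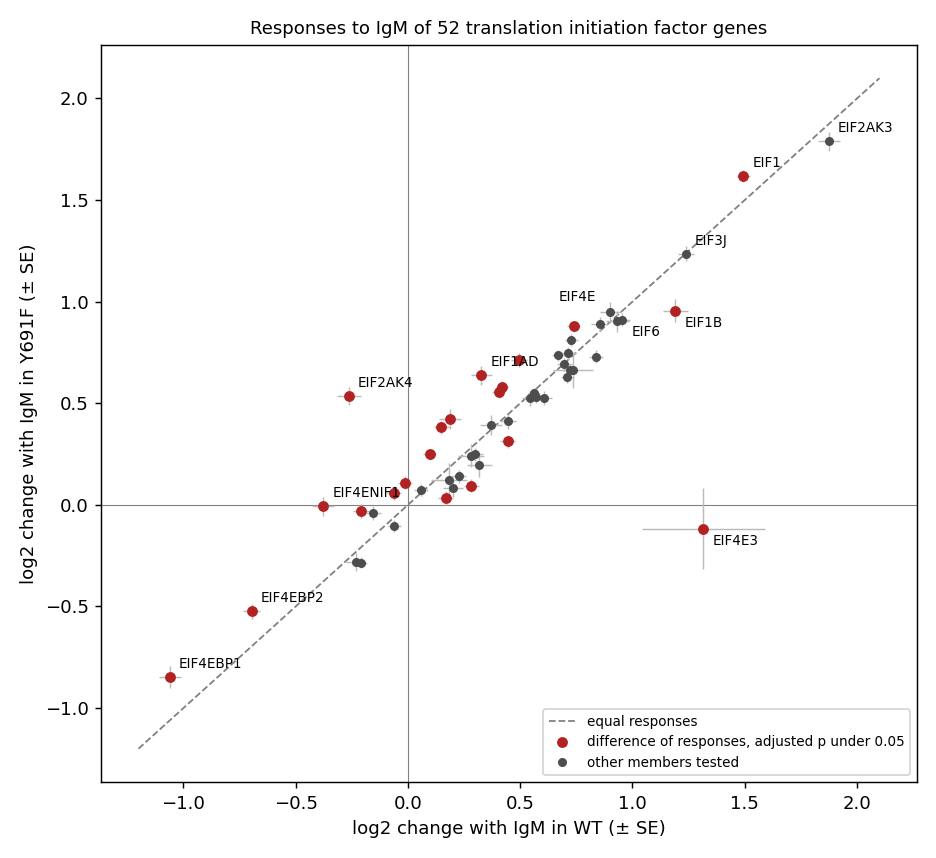
Log2 change with IgM in WT (x axis) against that in Y691F (y axis) for the 52 tested members, with SE as grey bars, the line of equal responses dashed and members whose responses differed at an adjusted p under 0.05 in red. Most points lie near the line from EIF4EBP1 at the lower left to EIF2AK3 at the upper right, and EIF2AK4 and EIF4E3 lie farthest from it.

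The responses of the lines were then set against each other through the interaction of the Roquin2 form with IgM. For 48 of the 52 members the responses differed by under 0.25 on the log2 scale. The response was higher in Y691F for 16 members, or 30.8%, against 14.7% of all tested genes. It was lower for 5, or 9.62%, against 11.0%, which is near the background. A difference of at least 0.5 was called upwards for EIF2AK4, against 4.55% of all tested genes, and downwards for EIF4E3, against 3.63%. With library totals only, 11 members responded more and 9 less in Y691F. The 5 with a lower response became 2 without untreated Y691F replicate 2, and 3 without untreated WT replicate 3 or IgM-treated WT replicate 1 or 3. The members' median difference was -0.0087, and that of all tested genes was 0.0069. All 3 eIF4G genes were among the 16 (0.22 for EIF4G3, 0.16 for EIF4G1 and 0.14 for EIF4G2). EIF4ENIF1 (0.37, adjusted p = 9.56e-06), EIF4A3 (0.23, adjusted p = 2.96e-05) and EIF1AD (0.31, adjusted p = 1.16e-04) followed EIF2AK4 by adjusted p. EIF4EBP2 (0.17, adjusted p = 0.0118) and EIF4EBP1 (0.21, adjusted p = 0.0248) fell less in Y691F. The call for EIF4EBP1 was lost with library totals only (0.0657), with the DESeq2 Wald test (0.0604) and without untreated WT replicate 1 (0.0688), IgM-treated WT replicate 1 (0.0748), untreated Y691F replicate 3 (0.124) or IgM-treated Y691F replicate 1 or 3 (0.0778 and 0.0998, all adjusted p). Of the members with a lower response in Y691F, EIF4E3 differed most (log2 -1.43, SE 0.34, adjusted p = 5.61e-04) on few reads. No difference of the responses was called for EIF4E (0.049, 95% interval -0.088 to 0.19), EIF2AK3 (-0.086, -0.22 to 0.052), EIF6 (-0.043, -0.14 to 0.050) or EIF3J (-0.0013, -0.11 to 0.11).

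Y691F cells were next set against WT cells in the stimulated state, to ask what the Roquin2 form changes there. EIF2AK4 was the member that differed most, and most eIF3 genes were lower by small amounts in Y691F. Higher in Y691F were 12 of the 52, or 23.1%, against 21.9% of all tested genes, which is near the background. Lower were 21, or 40.4%, against 20.2% of all tested genes. The median size of the change, without its sign, was 0.12 for the members and 0.19 for all tested genes. A change of at least 0.5 was called for 1 member upwards and for no member downwards, against 8.13% and 4.16% of all tested genes. That member was EIF2AK4, with 65.1 ± 1.45 CPM in Y691F with IgM and 31.1 ± 1.20 CPM in WT with IgM (2.09-fold, log2 1.07, SE 0.049, adjusted p = 2.65e-33). The next were EIF4ENIF1 (log2 0.32, SE 0.051, adjusted p = 1.11e-07) and EIF1AD (log2 0.27, SE 0.045, adjusted p = 7.93e-07), and on the other strand EIF4ENIF1 overlaps DRG1 and SFI1, and EIF1AD overlaps BANF1. The 3 eIF2 kinase genes among the members were all higher, with EIF2AK1 at 0.23 and EIF2AK3 at 0.13. EIF2AK3 lost its call without IgM-treated WT replicate 2 (adjusted p = 0.0501). EIF4G1 (0.19, adjusted p = 8.17e-09) and EIF4G2 (0.15, adjusted p = 1.02e-06) were higher too.

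Lower in Y691F with IgM were EIF2B3, which encodes the gamma subunit of eIF2B (28.8 ± 0.599 CPM in Y691F and 37.3 ± 1.89 CPM in WT, log2 -0.37, SE 0.057, adjusted p = 6.07e-08), and EIF4EBP1 (log2 -0.27, SE 0.059, adjusted p = 9.83e-05). EIF4EBP2 went the other way (log2 0.17, SE 0.041, adjusted p = 5.07e-04), so these 4E-BP genes differed in opposite directions. EIF5A (log2 -0.18, SE 0.028, adjusted p = 6.09e-08) and EIF1B (-0.19, adjusted p = 0.00136) were lower too. Of the 14 eIF3 genes 11 were called lower and none higher, against 20.2% and 21.9% of all tested genes, with a median of -0.093 and a range of -0.17 to -0.019. That count was 6 without IgM-treated WT replicate 2, 7 without IgM-treated WT replicate 3, and 6 without IgM-treated Y691F replicate 1 or 2. It was 6 with no filter on low counts and 13 with library totals only. EIF3C and EIF3CL, which share reads, are both among the 11 called lower. No difference was called for EIF4E (-0.082, 95% interval -0.17 to 0.0073; adjusted p = 0.0394 without IgM-treated Y691F replicate 3), EIF1 (-0.045, -0.10 to 0.0094) or EIF4E3 (0.26, -0.18 to 0.69). The 3 libraries of Y691F lay apart from the 3 of WT for all 33 called members. That again follows largely from the call, and the share over all tested genes is not given. Since either form had its own stable line, the form cannot be told apart from other differences between the lines.

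Without IgM fewer members differed between the forms. Higher in untreated Y691F were 5 of the 52, against 15.1% of all tested genes, and lower were 14, against 16.1%. The libraries were apart for 17 of these 19, the exceptions being EIF4E and EIF5AL1. This too follows largely from the call, and the share over all tested genes is not given. The 3 eIF2 kinase genes among the members were again higher, EIF2AK4 by 0.27 (adjusted p = 4.15e-06), EIF2AK3 by 0.21 (adjusted p = 0.00211) and EIF2AK1 by 0.11 (adjusted p = 0.00352). EIF2AK1 lost its call without untreated WT replicate 2 (adjusted p = 0.0602). EIF4E3 was higher on few reads (2.31 ± 0.301 CPM in untreated Y691F, 0.703 ± 0.136 CPM in untreated WT, log2 1.69, SE 0.25, adjusted p = 2.94e-08), the only member past 0.5 in this comparison, where 4.91% of all tested genes were higher and 2.61% lower by that much. EIF4EBP1 had the largest fall, to 55.3 ± 4.17 CPM in Y691F against 77.1 ± 2.96 CPM in WT (log2 -0.48, SE 0.045, adjusted p = 5.12e-15), while EIF4EBP2 was not called (-0.0056, 95% interval -0.077 to 0.065). EIF2B3 (-0.25, adjusted p = 2.99e-04) and EIF2S2 (-0.23, adjusted p = 6.61e-08) were also lower. EIF1 was lower as well (-0.17, adjusted p = 2.31e-06). EIF4E was called lower (-0.13, adjusted p = 0.0465), and its adjusted p rose to 0.345 without untreated Y691F replicate 1 and to 0.184 without untreated WT replicate 2. Of 20 alternatives 15 gave no call for it.

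Genes that act together with the initiation factors were read from 4 lists. Of 21 partners of the factors, 17 rose and 3 fell with IgM in Y691F, and 15 rose and 4 fell in WT, with medians of 0.33 and 0.27. Of all tested genes, 37.1% rose and 38.7% fell in Y691F, and 38.4% rose and 38.5% fell in WT. PABPC4, a poly(A)-binding protein gene, rose by 1.02 in Y691F and 0.96 in WT. ABCE1, whose product splits ribosomes for reuse, rose to 288 ± 10.6 CPM in Y691F with IgM, against 144 ± 4.48 CPM in untreated Y691F, and to 311 ± 2.05 CPM in WT with IgM, against 147 ± 3.86 CPM in untreated WT. PDCD4 encodes an inhibitor of eIF4A. It rose in WT to 77.5 ± 1.60 CPM with IgM, against 23.1 ± 2.35 CPM untreated (log2 1.75, SE 0.053, adjusted p = 1.63e-47), and its response in Y691F was smaller (interaction -1.04, adjusted p = 4.32e-20). In Y691F with IgM against WT with IgM this list counted 2 higher and 12 lower, against 21.9% and 20.2% of all tested genes. PDCD4 was lower there, at 44.3 ± 0.674 CPM in Y691F against 77.5 ± 1.60 CPM in WT (log2 -0.81, SE 0.048, adjusted p = 3.44e-26). PAIP2B, which encodes a repressor of the poly(A)-binding protein, was lower too, at 6.19 ± 0.112 CPM in Y691F against 15.9 ± 0.871 CPM in WT (log2 -1.37, SE 0.095, adjusted p = 2.03e-22). DHPS, whose product makes the hypusine of eIF5A, was also lower (-0.28, adjusted p = 1.42e-09). In the untreated lines 1 partner was higher and 9 were lower in Y691F, against 15.1% and 16.1% of all tested genes, and METAP2, a methionine aminopeptidase gene, had the smallest adjusted p among them (-0.39, adjusted p = 1.27e-18).

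The list of 18 kinases, phosphatases and regulators that act on initiation counted 10 higher and 4 lower with IgM in Y691F and 10 higher and 7 lower in WT. The shares of all tested genes were 37.1% higher and 38.7% lower in Y691F and 38.4% and 38.5% in WT, so the 7 of 18 lower in WT are near the background. PPP1R15A encodes GADD34, which directs a phosphatase to remove the phosphate that eIF2 kinases add. Its mRNA averaged 359.7 ± 4.16 CPM in Y691F with IgM, 44.5 ± 2.23 CPM in untreated Y691F, 869.9 ± 13.3 CPM in WT with IgM and 50.8 ± 2.23 CPM in untreated WT. It rose by 3.02 in Y691F and 4.10 in WT, and the responses differed (log2 -1.08, SE 0.052, adjusted p = 4.23e-31). With IgM it was lower in Y691F than in WT (log2 -1.27, SE 0.029, adjusted p = 1.21e-55). ATF4, whose mRNA is translated better when eIF2 is phosphorylated, rose by 1.20 in Y691F and 0.98 in WT. DNAJC3, which encodes an inhibitor of eIF2 kinases, rose by 0.79 in Y691F and 1.22 in WT. Between the forms the list counted 7 higher and 4 lower in Y691F with IgM, against 21.9% and 20.2% of all tested genes, and 5 higher and 6 lower in untreated Y691F, against 15.1% and 16.1%. The 4 of 18 lower with IgM are near the background. MKNK2, a kinase gene whose product phosphorylates eIF4E, was lower in both (log2 -0.43, SE 0.031, adjusted p = 2.98e-19 with IgM and log2 -0.79, SE 0.030, adjusted p = 5.56e-32 untreated).

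Elongation and termination factors counted 8 higher and 1 lower of 9 tested with IgM in each line, with medians of 0.59 in Y691F and 0.53 in WT. Of all tested genes, 37.1% were higher and 38.7% lower in Y691F, and 38.4% and 38.5% in WT. ETF1, the release factor gene, rose by 1.10 in Y691F and 1.07 in WT, and EEF2, the gene of the translocation factor, by 0.76 and 0.64. The gene that fell in each line, EEF2K, encodes the kinase that inhibits eEF2 (-0.80, adjusted p = 4.91e-31, in Y691F and -0.74, adjusted p = 3.93e-29, in WT). Between the forms this list counted 2 higher and 3 lower with IgM, against 21.9% and 20.2% of all tested genes, and 1 higher and 5 lower untreated, against 15.1% and 16.1%. Of the 3 genes of mitochondrial initiation, MTIF2 was higher with IgM and MTIF3 and MTFMT were lower, in each line. Between the forms their log2 values ran from -0.055 to 0.026 with IgM and from -0.083 to 0.014 untreated, and the lowest adjusted p in edgeR was 0.277.

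Levels between genes were compared on the deposited RPKM, which is per length, as the mean over all 12 libraries. The median of the 52 tested members was 23.8 RPKM, against 3.13 RPKM for all tested genes and 4.31 RPKM for the protein-coding ones. EIF5A was highest at 288 RPKM, followed by EIF4G1 at 195, EIF1 at 116 and EIF3I at 113 RPKM. This order leaves aside EIF3CL at 158 and EIF3C at 68.0 RPKM, whose shared reads leave their places uncertain. Their mean levels in CPM were close, at 607 and 589, so their gap in RPKM comes mainly from the lengths used. EIF5A ran from 233 to 340 RPKM over the libraries and EIF4G1 from 165 to 241 RPKM, so their ranges overlap. In Y691F with IgM they averaged 235 and 233 RPKM. EIF1 ran from 57.8 to 175 RPKM over the libraries and EIF3I from 89.0 to 144 RPKM, so that pair overlaps and its order changes with IgM. At the low end of the tested members were EIF4E3 at 0.129, EIF5A2 at 1.64, EIF2AK4 at 3.02 and EIF4E at 3.25 RPKM. EIF4EBP1 stood at 38.5 and EIF4EBP2 at 10.2 RPKM, each above EIF4E on this scale of mRNA. In CPM, however, EIF4E averaged more than EIF4EBP1 over all libraries. It was above EIF4EBP1 in both groups with IgM and below it in both untreated groups. The gap of EIF4E and EIF4EBP1 in RPKM thus comes mainly from the lengths used. EIF4EBP2 averaged more CPM than EIF4E over all libraries, but less in WT with IgM. All 54 members together took 1.42% to 1.46% of the counts in Y691F with IgM, 1.14% to 1.15% in untreated Y691F, 1.44% to 1.46% in WT with IgM and 1.16% to 1.18% in untreated WT.

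Promoter windows of RefSeq (GRCh38.p14, 250 bases before to 50 after a start) were matched by symbol for 44 of the 54 members, as 59 windows. The E-box CACGTG, the letters that MYC and its partner MAX bind and that read the same on both strands, was in 11 of the 59 windows, or 18.6%, against 7.26% of 35116 windows of the same length. It lay in windows of 11 members. EIF4E, EIF4G1 and EIF5A2 had a pair of E-boxes each. Of the 33 matched members that rose in WT 8 had one, as did 0 of the 5 that fell and 2 of the 4 with no call. In Y691F it was 9 of 34 that rose, 1 of 4 that fell and 0 of 4 with no call. The ETS letters CGGAAG, on either strand, were in 33.9% of the members' windows and in 19.5% of all windows. The letters TGACGTCA and TGATGCAA were in 0 of the 59 windows, against 1.85% and 0.866% of all windows. A start of C and then 4 pyrimidines, as in mRNAs with a terminal oligopyrimidine tract, was found in 15.3% of the members' windows and in 4.07% of all. Those 9 members (EIF2A, EIF2D, EIF2S3, EIF3D, EIF3F, EIF3K, EIF3M, EIF4A2 and EIF4B) had log2 values with IgM of -0.10 to 0.75 in Y691F and -0.060 to 0.84 in WT. A RefSeq start need not be the start used in these cells, and a match is not a binding site.

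The windows of EIF4E, EIF4G1, EIF3F and EIF4B are shown to 30 bases after the start as examples of both features, with the E-box and, at the start, the C and its 4 pyrimidines in capitals. EIF4E and EIF4G1 have a pair of E-boxes, and EIF3F and EIF4B have 1 E-box and a pyrimidine start. EIF4E, EIF4G1 and EIF3F were called higher with IgM in both lines. These examples were picked, and the number of E-boxes was not tested against the size of the response.
EIF4E (chr4:98929104-98929383, minus strand): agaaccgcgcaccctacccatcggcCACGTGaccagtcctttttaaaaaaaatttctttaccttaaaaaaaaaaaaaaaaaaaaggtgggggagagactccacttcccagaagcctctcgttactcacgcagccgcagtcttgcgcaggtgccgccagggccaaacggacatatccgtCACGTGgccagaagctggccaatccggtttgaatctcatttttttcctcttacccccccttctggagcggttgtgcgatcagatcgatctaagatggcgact
EIF4G1 (chr3:184314356-184314635, plus strand): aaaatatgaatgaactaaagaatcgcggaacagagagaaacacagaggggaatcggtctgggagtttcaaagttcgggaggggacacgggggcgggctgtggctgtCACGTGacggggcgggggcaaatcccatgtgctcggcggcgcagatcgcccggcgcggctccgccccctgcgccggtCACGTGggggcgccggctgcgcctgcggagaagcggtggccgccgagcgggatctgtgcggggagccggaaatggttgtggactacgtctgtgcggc
EIF3F (chr11:7987087-7987366, plus strand): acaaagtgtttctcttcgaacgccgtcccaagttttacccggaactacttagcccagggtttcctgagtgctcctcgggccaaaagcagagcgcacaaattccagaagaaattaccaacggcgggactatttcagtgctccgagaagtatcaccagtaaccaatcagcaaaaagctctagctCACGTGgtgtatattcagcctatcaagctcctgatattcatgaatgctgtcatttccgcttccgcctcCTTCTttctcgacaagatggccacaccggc
EIF4B (chr12:53006206-53006485, plus strand): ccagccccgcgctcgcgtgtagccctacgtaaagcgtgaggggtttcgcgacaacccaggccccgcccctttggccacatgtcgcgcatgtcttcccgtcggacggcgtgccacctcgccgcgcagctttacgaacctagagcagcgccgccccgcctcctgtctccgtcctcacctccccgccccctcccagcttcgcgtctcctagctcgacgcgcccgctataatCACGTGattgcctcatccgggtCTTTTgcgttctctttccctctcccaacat
In EIF4E the E-boxes begin 225 and 72 bases before the start, and in EIF4G1 144 and 67 bases before it. In EIF3F the E-box begins 68 bases before the start and in EIF4B 22 bases before it. With IgM, EIF4E changed by 0.95 in Y691F and 0.90 in WT, and EIF4G1 by 0.58 and 0.42. The values of EIF3F were 0.14 in Y691F and 0.23 in WT, and those of EIF4B -0.10 and -0.060.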

How the data were processed

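The 12 U-2932 libraries (4 groups of 3) were made from polyA+ RNA with dUTP marking of the strand, per the labels' protocols. For every Ensembl gene and library the deposited table holds the authors' read count and their RPKM value, per the file headers. STAR 2.5.0b, DESeq2 and GRCh38 are named in the submitters' processing notes. The sources used here do not give the read counter, its use of strand or the gene lengths behind RPKM, so reads of overlapping genes and copies may be split or shared. Genes were handled by identifier, with symbols and coordinates (GRCh38, 1-based) from the file.

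Genes passing filterByExpr were tested with the quasi-likelihood test of edgeR 4.0.16 (robust fit, TMM, R 4.3.3) on the deposited counts of all 12 libraries, with 1 coefficient per group. The contrasts were Y691F against WT with and without IgM, IgM against untreated in each line, and the interaction. The Benjamini-Hochberg adjustment ran over all 15112 tested genes of a contrast, and p is 2-sided. SE was derived from the log2 change and its F statistic, and the 95% intervals from SE. RPKM was used for levels between genes only. The procedure was tested on simulated data. Between replicates of a group the variance was 1.40 to 2.37 times that of counting alone, as chi-square per degree of freedom. The p-values measure the spread between these libraries.

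Every library is given for members with an adjusted p under 0.05 and an absolute log2 change of at least 0.5 in any contrast. The same holds for 11 members fixed by role, except the untested EIF4EBP3, which is given by its total reads. Up to 4 genes per list and contrast could be named. The members and lists were chosen with earlier results of these data known. Alternatives were DESeq2 1.42.0 size factors, library totals only, the DESeq2 Wald test, limma-voom (limma 3.58.1), no filter, a filter of 5 CPM in 3 libraries, only the groups compared, a replicate block, and leaving out each library.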

Additional observations from a re-analysis of the deposited data

Results flagged for a closer look

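For 21 of the 52 tested members the response to IgM differed between Y691F and WT by the test of that difference, at an adjusted p under 0.05 in edgeR over all tested genes. The same test called 3883 of all 15112 tested genes, 14.7% with a higher and 11.0% with a lower response in Y691F. The values below are the log2 response in Y691F minus that in WT.

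EIF2AK4, the GCN2 gene, differed by 0.80 (adjusted p = 9.99e-17), with a rise in Y691F and a fall in WT. Differences in the same direction were found for EIF4ENIF1 (0.37, adjusted p = 9.56e-06), EIF1AD (0.31, adjusted p = 1.16e-04), EIF2B4 (0.23, adjusted p = 0.00639), EIF4A3 (0.23, adjusted p = 2.96e-05) and EIF2S2 (0.18, adjusted p = 0.00405). The scaffold genes EIF4G3 (0.22, adjusted p = 3.64e-04), EIF4G1 (0.16, adjusted p = 4.32e-04) and EIF4G2 (0.14, adjusted p = 0.00263) and the helicase cofactor gene EIF4H (0.15, adjusted p = 0.00208) also responded more in Y691F, as did EIF5 (0.15, adjusted p = 0.00400). EIF4EBP2 (0.17, adjusted p = 0.0118) and EIF4EBP1 (0.21, adjusted p = 0.0248) fell less in Y691F, and library totals only ended both calls (0.0521 and 0.0657). The call for EIF4EBP1 was also lost with the DESeq2 Wald test (0.0604) and without any of 5 single libraries, untreated WT replicate 1, IgM-treated WT replicate 1, untreated Y691F replicate 3 and IgM-treated Y691F replicates 1 and 3 (up to 0.124). EIF1 differed by 0.12 (adjusted p = 0.0150), a call lost with library totals only (0.0763), without IgM-treated WT replicate 1 (0.0543) or untreated Y691F replicate 1 (0.0937). EIF3K (0.12, adjusted p = 0.0312) was near the threshold. It was not called in 8 of 19 alternatives, among them those without IgM-treated WT replicate 1 or 3, untreated WT replicate 1 or 2, IgM-treated Y691F replicate 3, or untreated Y691F replicate 1 or 3 (adjusted p up to 0.122). EIF2B5 (0.12, adjusted p = 0.0462) was not called in 12 of 19, among them 8 of the 12 that leave out 1 library, the exceptions being replicate 1 of either group with IgM, untreated WT replicate 3 and untreated Y691F replicate 2 (adjusted p up to 0.171 without a library).

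A lower response in Y691F was found for EIF4E3 (-1.43, adjusted p = 5.61e-04), EIF1B (-0.23, adjusted p = 0.0187), EIF3L (-0.19, adjusted p = 0.00118), EIF3H (-0.13, adjusted p = 0.0243) and EIF3G (-0.13, adjusted p = 0.0247). EIF3H and EIF3G were each not called in 8 of 19 alternatives. For EIF3H these include leaving out IgM-treated WT replicate 1, untreated WT replicate 1 or 3, IgM-treated Y691F replicate 2, or untreated Y691F replicate 2 or 3 (adjusted p up to 0.124). For EIF3G they include IgM-treated WT replicate 1 or 3, untreated WT replicate 2, IgM-treated Y691F replicate 1, or untreated Y691F replicate 2 (up to 0.121). EIF1B lost its call with the DESeq2 Wald test (0.0779), and without untreated WT replicate 3 (0.0600), IgM-treated WT replicate 3 (0.0831) or untreated Y691F replicate 2 (0.151).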

How the results depend on the processing

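The counts of members called higher or lower stayed within 1.5 times under every alternative in the comparisons of Y691F with WT and of IgM with untreated WT. In Y691F, library totals only gave 12 members lower with IgM in place of 5. In the interaction, members with a lower response numbered 5, and 9 with library totals only, 2 with the DESeq2 Wald test, 3 with no filter on low counts, and 2 to 6 when 1 library was left out. Members with a higher response ranged from 11 to 17. Leaving out 1 library gave 11 to 13 higher and 14 to 23 lower for Y691F against WT with IgM, and 4 to 6 higher and 10 to 15 lower for the untreated lines. It gave 39 to 41 higher and 8 to 9 lower for IgM in WT, 38 to 39 higher and 5 lower for IgM in Y691F, and 13 to 17 higher for the interaction. Library totals only turned the sign for IgM in Y691F of EIF2B5 (-0.11), EIF2S3 (-0.10), EIF3F (-0.029), EIF3G (-0.14), EIF3K (-0.060) and EIF3L (-0.075), and in WT of EIF2S3 (-0.075) and EIF4H (-0.037). The TMM factors that this alternative drops were 0.939 to 0.956 in libraries with IgM and 1.04 to 1.07 in untreated ones. The replicate block left the counts as they were in each comparison (12 higher and 21 lower for Y691F against WT with IgM), and it changed no call of a member. The deviations of same-numbered libraries of different groups correlated at -0.062 to 0.030 over 18 pairs. These values show no sign of pairing by number, but they cannot exclude a weak one. EIF4E3, EIF4EBP3 and EIF4E1B are limited by depth.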
